A study of Mus musculus with 74 samples.

Results

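The regions described here are 6411 windows of 1 kb on the mouse autosomes that were marked by H3K9me3 in cloned embryos (somatic cell nuclear transfer, SCNT) at the 4-cell and the 8-cell stage and at no other stage for which a peak list was analysed. A window was chosen by its measured coverage: merged peaks covered at least 500 bases of it in both the 4-cell and the 8-cell list and fewer than 500 bases in each of the 8 other lists. The members are 0.268% of the 2395928 autosomal windows with at least 500 assembled bases, out of 2462755 windows in all, and every member had that many assembled bases. The coverage values in these 10 lists therefore selected the members and are given below as description, without a test.

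H3K9me3, the trimethylation of lysine 9 of histone H3, is the mark of constitutive heterochromatin. It is written by SETDB1 and the SUV39H enzymes, is bound by HP1 proteins and in the early embryo lies mostly over retrotransposons, whose transcription it restrains. After nuclear transfer the mark carried over from the donor nucleus is partly removed and new marks are laid down while the embryo cleaves.

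H3K9me3 was profiled with ULI-NChIP-seq, a native ChIP-seq for very few cells that cuts chromatin with micrococcal nuclease and uses no crosslinking, in 74 libraries, of which 41 were precipitates and 33 were inputs. The lists came from cumulus cells (CC), the donor cells that surround the oocyte, from SCNT embryos at 6 h and 14 h post activation (hpa), at the 2-cell, 4-cell, 8-cell and morula stages and from the ICM (inner cell mass) and the TE (trophectoderm) of SCNT blastocysts, and finally from PN5, which are fertilized zygotes in the fifth pronuclear stage. Donor cells and oocytes were from BDF1 (B6D2F1) mice, with strontium chloride and cytochalasin B used to activate the reconstructed oocytes, whereas PN5 zygotes came from C57BL/6 mice of both parents and, by the study's methods, from earlier work, so strain, study of origin and type of embryo cannot be told apart in any contrast with PN5. The 4-cell group held 3 precipitates and 3 inputs and the 8-cell group held 7 precipitates and 4 inputs, but the authors merged the libraries of a stage, drew an equal number of reads for each stage and called 1 broad peak list from them. Which of the libraries entered each list is not known, and no value below has a replicate error. The intervals given are 95% intervals over windows or genes, cover counting error only, and treat neighbouring windows as independent, which they are not.

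The members with the highest peaks are shown first, as examples that stand at 1 end of the range. They were ordered by the lower of their 2 fold enrichments over input (4-cell and 8-cell), and 200 bases around the centre of 4 of the leading windows are printed here from GRCm38.p6 (mm10), forward strand, with each CpG in capitals.
Member near A230072I06Rik, chr8:12136401-12136600: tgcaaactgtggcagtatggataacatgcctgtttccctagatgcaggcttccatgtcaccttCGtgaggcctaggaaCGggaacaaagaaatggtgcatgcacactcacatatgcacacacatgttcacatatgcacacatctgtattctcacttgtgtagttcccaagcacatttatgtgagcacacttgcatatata
Member near Gal3st3, chr19:5321401-5321600: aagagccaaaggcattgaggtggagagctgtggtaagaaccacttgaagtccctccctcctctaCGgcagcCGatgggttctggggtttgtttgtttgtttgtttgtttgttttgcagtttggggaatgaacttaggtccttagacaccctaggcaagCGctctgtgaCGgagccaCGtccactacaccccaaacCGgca
Member near Lemd2, chr17:27212401-27212600: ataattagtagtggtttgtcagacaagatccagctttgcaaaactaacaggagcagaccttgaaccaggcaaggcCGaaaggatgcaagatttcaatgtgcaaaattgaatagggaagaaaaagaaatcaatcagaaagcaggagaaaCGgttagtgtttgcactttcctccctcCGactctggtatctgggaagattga
Member near Atoh1, chr6:64874401-64874600: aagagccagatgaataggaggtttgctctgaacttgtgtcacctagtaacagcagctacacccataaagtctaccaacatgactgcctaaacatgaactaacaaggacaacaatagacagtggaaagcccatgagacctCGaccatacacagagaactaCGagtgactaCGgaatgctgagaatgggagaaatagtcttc
All 4 stretches were intergenic. The genes in the labels are the nearest protein-coding genes, at 141818 bp (A230072I06Rik), 12262 bp (Gal3st3), 7531 bp (Lemd2) and 142755 bp (Atoh1). They held 2, 6, 3 and 3 CpG in 200 bases, at GC contents of 44.5%, 52%, 42.0% and 44.5%. Their whole windows held 16, 17, 20 and 9 CpG per kb, against a median of 9 over all members, and were masked over 26.1%, 38.9%, 12.4% and 32.4%, against a median of 14.6%.

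A further pair shows sequence in members at named genes, again with each CpG in capitals. The first is the centre of the longest run of adjacent members, in an intron of Hoxb3, and the second is the sequence just before the 5′ end of Lep, the gene with the highest lower-of-2 fold among genes whose 5′ end lay in a member.
Centre of the Hoxb3 run, chr11:96335401-96335600: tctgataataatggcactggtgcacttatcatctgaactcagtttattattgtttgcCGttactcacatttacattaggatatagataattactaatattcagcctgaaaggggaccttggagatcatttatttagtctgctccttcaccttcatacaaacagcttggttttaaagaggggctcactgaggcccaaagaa
Before the 5′ end of Lep, chr6:29060020-29060219: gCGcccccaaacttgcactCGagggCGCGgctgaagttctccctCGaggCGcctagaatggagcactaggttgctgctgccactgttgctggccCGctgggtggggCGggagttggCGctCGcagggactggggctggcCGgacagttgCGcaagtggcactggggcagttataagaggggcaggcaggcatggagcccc
The Hoxb3 stretch held 1 CpG at 38.0% GC, and the Lep stretch held 12 CpG at 67% GC. The median over members was 9 CpG per kb.

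The members formed the second fullest pair of stages among those marked in exactly 2 lists. Of the 45 pairs of lists, CC with 14 hpa had the most such windows at 15382, followed by the 6411 members, by ICM with TE at 5945 and by 14 hpa with PN5 at 5829. The next neighbouring stages, 8-cell with morula and 2-cell with 4-cell, had 3910 and 1340. In the 4-cell list 142469 windows were marked, which is 5.95% of the assembled windows, and in the 8-cell list 146278, which is 6.11%. Both marked 83994 windows, or 3.51%, and the members were 7.63% of these (95% Wilson interval 7.46 to 7.81). That share had rank 3 among the 45 pairs, after 13.9% for CC with 14 hpa and 10.2% for 14 hpa with PN5.

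**Figure D1:**
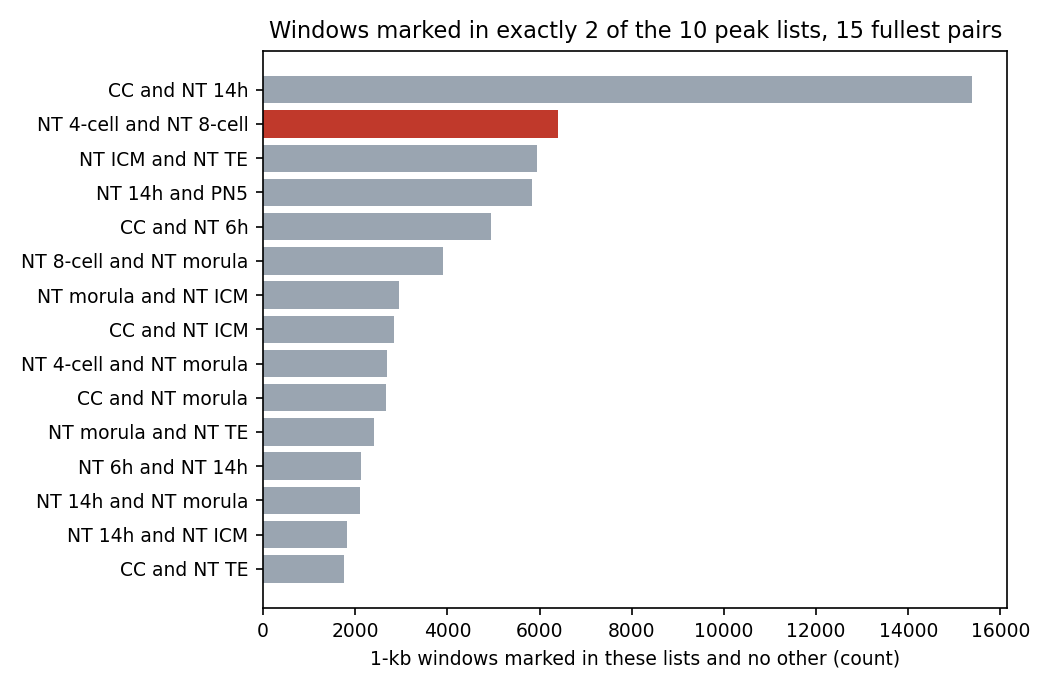
Number of autosomal 1-kb windows marked in exactly 2 of the 10 lists, shown as bars for the 15 fullest pairs, with the 4-cell and 8-cell pair in red. The 6411 members come after CC with 14 hpa at 15382 and just before ICM with TE at 5945.

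Read in the other direction, the windows that were marked at both stages and in exactly 1 more list were 7358, and the added list was most often a neighbour in time. The morula list was the added one in 2814 of them and the 2-cell list in 1542. PN5 was added in 722, 6 hpa in 596, 14 hpa in 578, ICM in 492, TE in 456 and CC in 158. Among windows with exactly 1 added list, CC was thus the least frequent, although it marked more windows than any other list (197662).

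At the members themselves the 4-cell and 8-cell lists covered on average 808 and 813 of the 1000 bases. The window was covered over its whole length in 35.1% of members in 4-cell embryos, in 35.6% in 8-cell embryos and in 18.3% at both. The rule leaves room for up to 499 bases in another list, and much of that room was used. The morula list touched 42.7% of members with at least 1 base, and the 2-cell list touched 31.1%. The remaining lists touched 18% (TE), 17.8% (6 hpa), 16.8% (ICM), 14.9% (14 hpa), 13.9% (PN5) and 6.18% (CC) of members. No other list touched 1527 members at all, or 23.8%, and these are the windows for which the description "4-cell and 8-cell only" holds to the base.

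Many members lay close to the limits of the rule. In 1081 of them, or 16.9%, the less covered of the 2 stages had 500 to 549 bases, and 1312 further windows failed only because that stage had 450 to 499. At the other limit, 798 members had 450 to 499 bases in some other list, and 932 windows with 500 to 549 bases in their most covered other list fell outside. The members are therefore a slice of a continuous distribution and have no gap around them.

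The peaks over the members were wider than the peaks of these lists at large and of ordinary height, but narrower and lower than those over other windows marked at both stages. The median width of the peak that covered most of a member was 1727 bp in 4-cell embryos and 1668 bp in 8-cell embryos, against 694 bp and 574 bp for all autosomal peaks of these lists, a contrast to which the demand for 500 covered bases contributes by construction. The median fold over input was 3.04 and 2.91, against 3.04 and 2.87 for all peaks. The median −log10 q was 2.24 in 4-cell embryos and 2.12 in 8-cell embryos. Windows marked at both stages had higher peaks the more of the other lists also marked them, and the medians reached 3.77 and 3.47 in the 14185 windows marked in all 10 lists. Widths, which carry the same demand for 500 bases in all these windows, were smallest in the members. The medians were 2094 bp and 1923 bp with 1 other list, and 4249 bp and 3620 bp with all 10 lists.

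The members were poor in repeats. The share of a window's bases that is soft-masked in the reference, which is how interspersed repeats and simple repeats are flagged, had a median of 14.6% in members (quartiles 7.35% and 27.6%) and of 24.9% over all assembled windows. At least 50% of the bases were masked in 7.58% of members (6.96 to 8.25) and in 21.2% of all windows, a difference of -13.6 percentage points (-14.2 to -12.9). The members had the lower share on 19 of 19 autosomes. Set against the 77583 windows that both stages shared with at least 1 other list, of which 47.0% were masked to that extent, the difference was -39.4 points (-40.1 to -38.7), again on 19 of 19 autosomes.

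The repeat content rose step by step with the number of other lists that marked a window. From the members, with 0 other lists, the share of windows at least 50% masked went from 7.58% to 12.7%, 19.8%, 27.4%, 31.7%, 38.7%, 53.0%, 70.9% and, with all 8 others, 84.2%. Base composition did not follow this course. Median GC stayed between 46.5% and 48.1% in all 9 classes, while the median number of CpG per kb went from 9 in the members to 23.0 in the windows marked in every list.

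**Figure D2:**
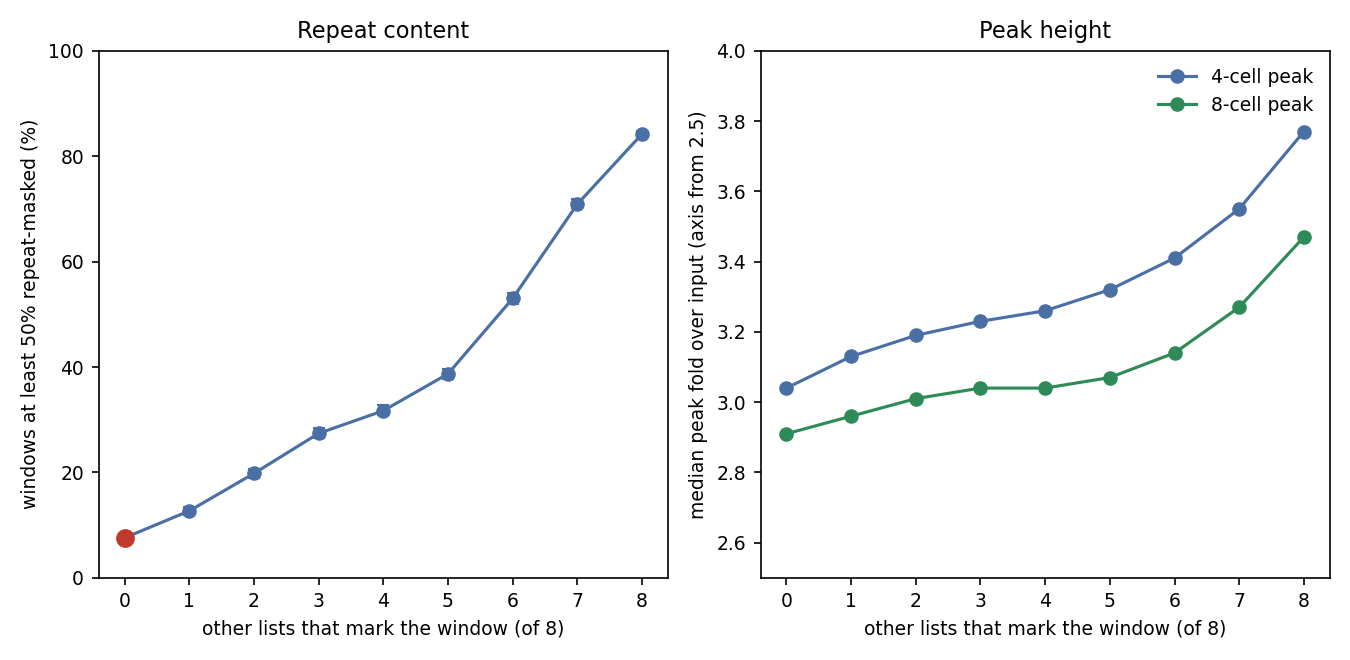
Windows marked at both the 4-cell and the 8-cell stage, split by how many of the 8 other lists marked them (horizontal axis). The left panel gives the percent of windows with at least 50% soft-masked bases, with 95% Wilson intervals that are mostly smaller than the points and the members in red at 7.58%. The right panel gives the median fold over input of the 4-cell and 8-cell peaks on an axis that starts at 2.5, and both curves rise from 3.04 and 2.91 to 3.77 and 3.47.

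Windows marked at a single one of the 2 stages lay between the members and the genome in repeat content. At least 50% masking was found in 13.1% of the 13605 windows marked at the 4-cell stage alone and in 12.9% of the 22548 marked at the 8-cell stage alone. The members were lower by -5.48 points (-6.34 to -4.62) and -5.34 points (-6.12 to -4.56), and lower on 19 of 19 autosomes in both cases. Windows marked in ICM and TE alone were at least 50% masked in 43.2%, so that the members were lower by -35.6 points (-37.0 to -34.2).

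The members were richer in GC than the genome. Their median GC was 47.0% (46.9 to 47.2), against 41.7% over all windows, and the median was higher on 19 of 19 autosomes. GC below 40% was rare among them, at 2.79% of members and 38.2% of all windows. Against windows that both stages shared with another list, which had a median of 47.1%, the members differed by -0.100 points, and the direction was not the same on all autosomes (8 higher, 10 lower). The surroundings differed more: over the 101 windows centred on a member GC had a median of 45.4%, against 43.5% around the shared windows and 41.4% around the windows marked in every list. The part that the amplification of GC-rich fragments may have in these values was not tested.

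The members were also less masked than all windows within each of 4 GC bands. Among windows with 44 to 48% GC, 9.58% of members and 21.6% of all windows were at least 50% masked. In windows of 48 to 52% GC the shares were 3.31% and 12.8%, at 40 to 44% GC they were 11.9% and 24.8%, and at 52% GC or more they were 1.35% and 7.53%.

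The members held slightly more CpG than the genome, with a median of 9 per kb against 7 over all windows. The observed-to-expected CpG ratio, which is near 1 where CpG have not been lost, had a median of 0.173 in members, 0.162 in all windows and 0.402 in windows marked in every list. A ratio above 0.6, one of the usual criteria for a CpG island, was found in 7 members, or 0.109%, compared with 0.890% of all windows and 13.3% of windows marked in every list.

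Of the 5 short motifs counted on either strand, all but GAAGAAGAA were more frequent in members than in the genome. The letters CACGTG were held by 12.2% of members (11.4 to 13.0), 9.62% of all windows and 10.9% of the windows shared with another list. TGCCGC was held by 8.89% of members (8.22 to 9.61), 5.89% of all windows and 17.8% of the shared windows. TTAGGG was held by 34.5%, 32.5% and 32.8% of these sets in the same order, GAAGAAGAA by 4.21%, 4.44% and 3.77%, and CACACACA by 27.9%, 25.4% and 18.5%. A perfect tandem tract of at least 24 bases with a unit of 1 to 6 bases was present in 19.7% of members, 21.5% of all windows and 13.4% of the shared windows. These are matches of letters and not binding sites.

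A search of all words of 12 bases, on both strands, for those held by the largest share of members relative to all windows, among words held by at least 20 members, gave small numbers. The leading word was AGGGGAGTGCTC (reverse complement GAGCACTCCCCT), held by 21 members, or 0.328%, by 0.0318% of all windows, a ratio of 10.3, and by 0.182% of the windows shared with another list. Some of the leading words were more frequent in the shared windows than in members, such as GTTTCACCCATA with 0.347% and 0.312%. The 30 leading words were held in any combination by 75 members, or 1.17%, and 21 members held 5 or more of them. A member on chromosome 1 that holds the leading word, in capitals, is printed to show that several of them stand close together.
Member with the leading word, chr1:87742517-87742716: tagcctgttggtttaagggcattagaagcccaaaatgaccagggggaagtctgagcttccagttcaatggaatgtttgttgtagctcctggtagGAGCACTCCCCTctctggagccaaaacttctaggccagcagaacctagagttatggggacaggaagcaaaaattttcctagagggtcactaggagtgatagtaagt
This stretch alone held 12 of the 30 words, and the window that holds it was soft-masked over 100% of its bases. Of words held by at least 2% of all windows, the scarcest in members was AGAAAGAAATTA, held by 0.296% of members and 2.14% of all windows, and the 10 scarcest included GCCTTTAATCCC, held by 0.796% and 3.27%. The words were picked by this comparison, so their shares are a description.

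The members were spread unevenly over the autosomes. Chromosome 9 held 575 members, or 4.75 per 1000 assembled windows, and chromosome 11 held 489, or 4.12. Chromosome 3 had the lowest density with 207 members, or 1.32 per 1000, and chromosome 10 followed with 1.65. Over the 19 autosomes the mean density was 2.71 ± 0.858 per 1000 (SD over chromosomes, which are not replicates). The excess on chromosomes 9 and 11 was also seen among windows already marked at both stages, of which 11.4% and 10.6% were members, compared with 5.74% on chromosome 3 and 5.96% on chromosome 4.

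**Figure D3:**
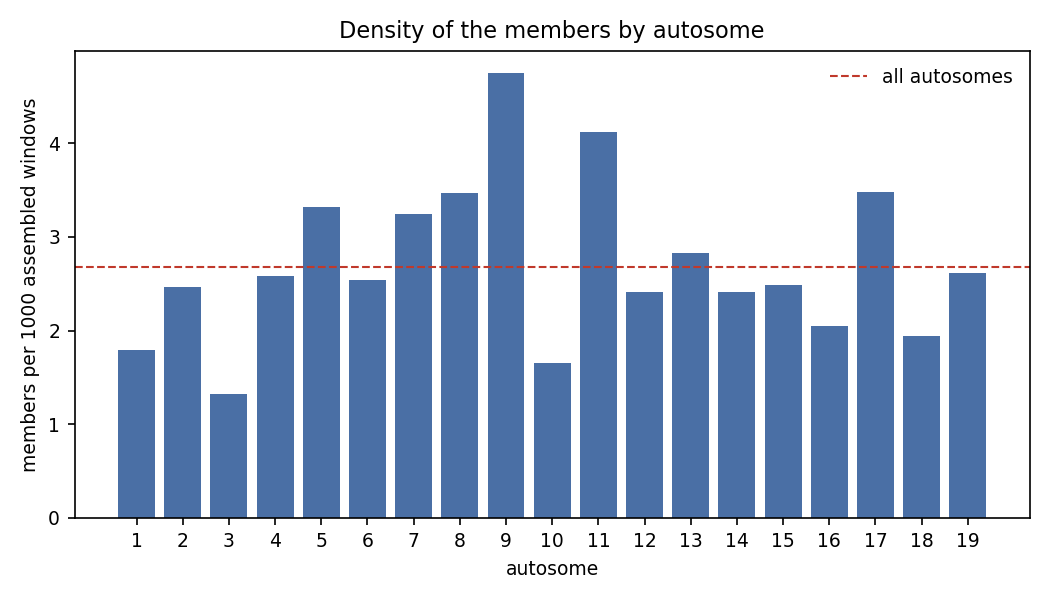
Members per 1000 assembled windows on each of the 19 autosomes (bars), with the value over all autosomes, 2.68, as a dashed line. Chromosomes 9 and 11 stand highest at 4.75 and 4.12 and chromosome 3 lowest at 1.32.

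At a finer scale the members gathered in a limited number of places. Of 2473 bins of 1 Mb, 1235 held at least 1 member, and 195 bins, or 7.89%, held 50% of the members. The fullest bin, chr11:96000001-97000000, held 49 members, among them the Hoxb genes and Skap1, an adaptor of T cell signalling, with 14 in its body. The next were chr8:12000001-13000000 with 44, which has the developmental regulator Sox1 close to a run of members, and chr5:119000001-120000000 with 43, next to Tbx5, a T-box regulator of heart and forelimb. Then came chr9:61000001-62000000 with 42 members, none of them in a protein-coding gene, and chr8:121000001-122000000 with 39, in the long gene model Gm20388. The bin chr6:126000001-127000000 followed with 36, of which Ntf3 held 5. Pax2, a regulator of kidney and eye development, took 14 of the 35 members in the bin after these, chr19:44000001-45000000. The 4-cell and 8-cell peaks covered 23.0% and 25.5% of the fullest bin, and the morula and 2-cell peaks covered 10.5% and 11.3%. The remaining lists covered between 2.13% (PN5) and 7.63% (6 hpa) of it. The same order of the 4-cell and 8-cell lists above all others was found in each of the 10 fullest bins, as the choice of bins by members favours.

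Most members stood alone along the sequence. Of 5907 runs of adjacent members, 5460 were single windows, 399 held 2, 40 held 3, 7 held 4 and 1 held 5. The run of 5, chr11:96333001-96338000 within Hoxb3, was covered over 4334 bases in 4-cell and 4674 bases in 8-cell embryos, over 583 bases at 6 hpa and 467 bases at the 2-cell stage, and over 0 bases in CC, 14 hpa, morula, ICM, TE and PN5. Among the runs of 4 were chr5:119819001-119823000, which lies 9667 bp from Tbx5, and chr8:12344001-12348000, which lies 47294 bp from Sox1. Another was chr17:36184001-36188000 at H2-T3, a class Ib major histocompatibility gene.

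Few members were far from a mark of another stage. The window next to a member was marked in another list for 63.6% of members, and the nearest such window was 5 or more windows away for 9.34% and 10 or more for 2.54%. In 43.0% of members (41.8 to 44.2) neither the 4-cell nor the 8-cell peaks over the window reached a window marked elsewhere. These 2756 members had narrower peaks, with medians of 1009 bp and 1096 bp, than the 3655 others, with 2812 bp and 2430 bp, a difference that the definition itself favours. Their GC and masking were close to those of the others, with medians of 46.7% and 47.3% GC and of 14.4% and 14.7% masked bases.

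The neighbourhood of the members held more marks than the genome in 9 of the 10 lists, with the highest ratios at the cleavage stages. At 10 kb from a member 24.3% of windows were marked in 4-cell embryos and 25.9% in 8-cell embryos, which is 4.09 and 4.24 times the share over the genome. The 2-cell list marked 13.6% at that distance, 2.94 times its genome share, and the morula list 17.0%, 2.43 times. The ratio was 1.91 for 6 hpa, 1.70 for PN5, 1.69 for TE, 1.48 for ICM and 1.42 for 14 hpa. CC was the one list below its genome share, with 6.29% against 8.25%, a ratio of 0.763. Directly beside a member the other lists were held down by the rule, since a peak that ran far into the window would have removed it. The rule can also act at 10 kb where peaks are wide. The widest peaks over members spanned 41805 bp in the 4-cell list and 18011 bp in the 8-cell list. How much of the values at 10 kb comes from the rule was not tested.

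**Figure D4:**
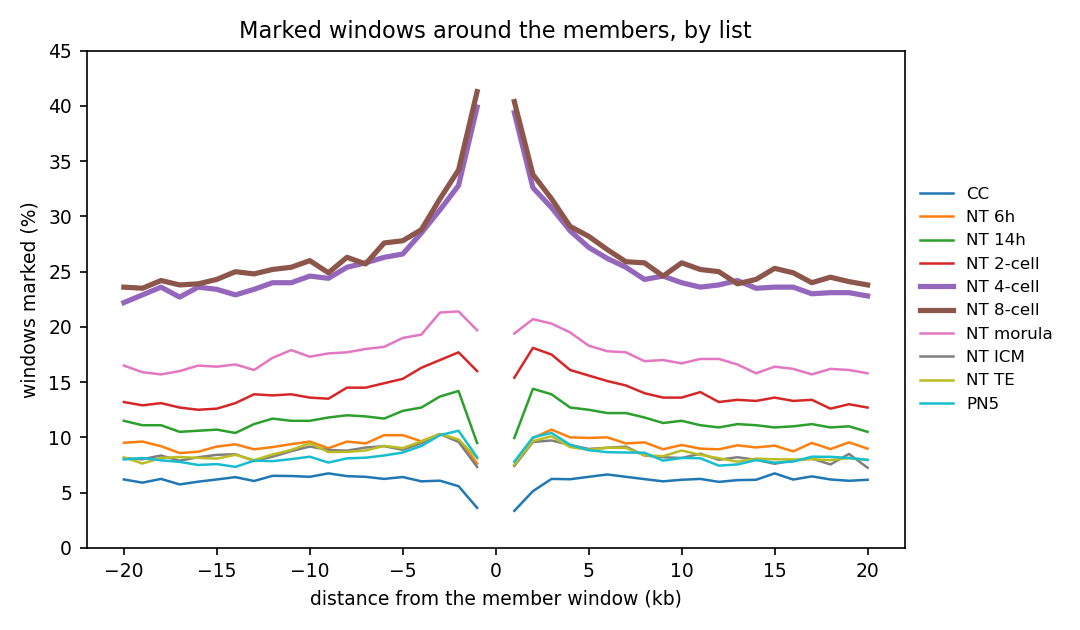
Percent of windows marked in each list (vertical axis) by distance from the member window in kb (horizontal axis), averaged over 6411 members, with distance 0 left out because the rule fixes it. The 4-cell and 8-cell curves fall from 39.6% and 40.9% beside the member to 24.3% and 25.9% at 10 kb, the morula and 2-cell curves lie below them, and CC is lowest throughout.

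Protein-coding genes held 37.0% of members (35.8 to 38.2), or 2373 windows, and 4038 members lay outside them. All assembled windows lay in such genes in 42.0%, so that the members were lower by -5.03 percentage points (-6.21 to -3.85), on 13 of 19 autosomes. The gap was wider within each of the 4 GC bands. At 40 to 44% GC 30.3% of members and 41.3% of all windows were genic, and at 44 to 48% GC 33.6% and 45.1%. At 48 to 52% GC the shares were 40.1% and 53.1%, and at 52% GC or more they were 53.2% and 71.5%. Compared with windows that both stages shared with another list, of which 26.7% were genic, the members were higher by 10.3 points (9.11 to 11.6), on 18 of 19 autosomes. The share fell with the number of other lists, to 18.3% in windows marked in every list. Exons were touched by 8.72% of members, 10.6% of all windows and 4.94% of the shared windows. Promoters, taken as 1 kb on either side of the annotated 5′ end, were touched by 1.65% of members (1.37 to 2.00), against 2.43% of all windows and 0.991% of the shared windows. Windows marked at 6 hpa alone had 16.9% at promoters, so that the members were lower by -15.3 points (-15.9 to -14.6) on 19 of 19 autosomes. The members were thus mainly intronic and intergenic, as were all windows by the same shares. Their median distance to the nearest protein-coding 5′ end was 56.8 kb. No such 5′ end lay within 50 kb of 53.8% of members and of 57.8% of all windows.

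Of 20807 autosomal protein-coding genes, 974 held a member in the body, which is 4.68%, and 97 had a member at the promoter, which is 0.466%. Among the 974, 551 held 1 member, 191 held 2 and 232 held 3 or more. Long genes had more room: 82 of the 218 genes of at least 500 kb, or 37.6%, held a member, but at 2.72 members per Mb of gene they were close to the 2.38 per Mb over all genes.

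The genes with the most members were long. The first, Gm20388, is an annotated read-through model of 4434882 bp on chromosome 8 that held 71 members and spans many other genes. The second, Fgfr2, a receptor of fibroblast growth factors needed in the trophoblast, held 37 members in its GENCODE span of 2960900 bp, but 0 in its RefSeq span of 104358 bp, so these members lay beside the receptor gene proper. A further 8 genes held 17 to 26 members each, with the same count in both annotations.

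Grik4, which encodes a kainate receptor subunit, held 26 members on chromosome 9. Peaks covered 26.0% of its body in 4-cell and 36.2% in 8-cell embryos, 19.2% in morulae, 8.90% in 2-cell embryos, 8.24% in ICM and 9.62% in TE. The earlier lists covered less of it, with 2.20% for CC, 2.66% for 6 hpa, 4.53% for 14 hpa and 5.39% for PN5. Grik4 was named for its members, which the rule took from these same lists, so this order of stages is a description.

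Dscaml1, an immunoglobulin-family adhesion molecule of neurons, held 20 members and had a similar order of stages. Its coverage was 23.2% and 36.4% in the 4-cell and 8-cell lists, 13.3% in the morula list and 5.19% in the 2-cell list. The other lists covered 7.92% (PN5), 3.04% (6 hpa), 2.58% (14 hpa), 2.56% (ICM), 1.67% (TE) and 0.467% (CC). The other genes of this group were Kalrn (22 members) and also Dpp6 (24), an accessory subunit of potassium channels, Shank2 (19) and Dlgap2 (18), scaffold proteins of the postsynaptic density, Erc2 (18), a presynaptic active zone protein, and Rbfox3 (17), a neuronal splicing factor. In these 6 genes coverage was 14.4% to 39.3% in 4-cell embryos, up to 42.5% in 8-cell embryos, 10.6% to 28.7% in morulae and 5.65% to 10.8% in ICM. Erc2 was covered over 16.7% in morulae and 17.5% in 4-cell embryos, and Rbfox3 over 26.3% in the 2-cell list and 22.2% in the 6 hpa list.

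Measured per 100 kb, among genes with at least 3 members, short genes led. Krt6a, a keratin of stratified epithelia, held 3 members in 4398 bp. Its body was covered over 54.0% in 4-cell embryos, 73.2% in 8-cell embryos, 22.0% in morulae and 4.62% in ICM, and over 0 in the other 6 lists. Btnl4, a butyrophilin-like gene, reached 87.9% and 93.5% at the 4-cell and 8-cell stages, against 16.0% at the 2-cell stage, 35.9% at the morula stage and at most 13.3% elsewhere. H2-T3 was covered over 50.8% and 63.9% at these stages, over 9.14% at the 2-cell stage and over 0 in the rest. Krt6a and H2-T3 belong to gene families with near copies, and reads that fit several copies can be placed on the wrong one.

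The others of this group were Hoxa7 and Hoxb3, homeobox genes of the body axis, Meox1, a homeobox gene of the somites, Ankk1, an ankyrin-repeat kinase, Asb18, a SOCS-box protein, C4b, a complement component, and Cd177, a surface protein of neutrophils. Hoxa7 was covered over 79.7% and 67.9% at the 4-cell and 8-cell stages and over 0 in the morula, ICM, TE and PN5 lists, but over 55.1% at 6 hpa. It held 3 members in the GENCODE span of 7364 bp and 1 in the RefSeq span of 2951 bp. Cd177 was covered over 53.5% at the 2-cell stage, nearly as much as its 65.4% and 50.4% at the 4-cell and 8-cell stages. Single genes thus held members while other stages covered other parts of the same body.

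**Figure D5:**
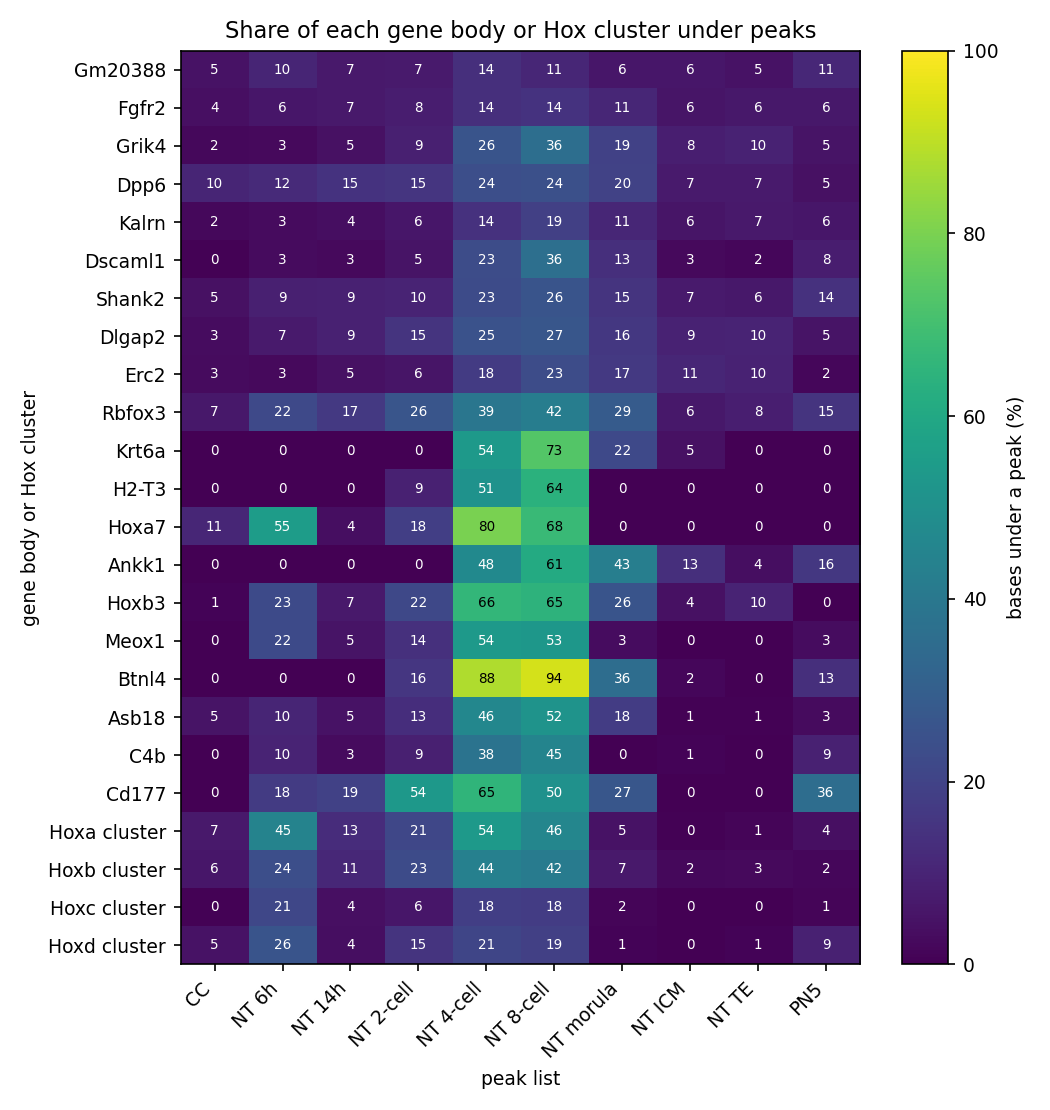
Percent of bases under a peak in each of the 10 lists (columns) for the 10 genes with the most members, the 10 genes with the most members per 100 kb and the 4 Hox clusters (rows), with the value rounded in each cell and a colour scale from 0 to 100%. The 4-cell and 8-cell columns are the brightest in most rows, as the choice of genes by members favours, and the Hox rows are also bright at 6 hpa.

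The Hox clusters, which hold the homeobox genes that pattern the body axis, had members in 12 of 39 genes, or 30.8% (18.6 to 46.4), beside 4.68% over all genes. The Hoxb cluster, chr11:96194316-96368256, held 17 members and the Hoxa cluster, chr6:52155590-52260880, held 13, while Hoxc and Hoxd held 2 each. In these last 2 clusters the 6 hpa list covered most, with 21.3% of Hoxc against 18.5% and 17.9% in 4-cell and 8-cell embryos, and 26.0% of Hoxd against 21% and 19%. Peaks covered 43.6% of the Hoxb cluster in 4-cell and 41.5% in 8-cell embryos. Next came 6 hpa with 24.2% and the 2-cell list with 22.9%, then 14 hpa with 11%, and the other lists covered 6.92% (morula), 5.94% (CC), 2.67% (TE), 2.06% (ICM) and 1.81% (PN5). The Hoxa cluster had the same order at the cleavage stages, with 54.1% and 46.0% at the 4-cell and 8-cell stages and 4.99% at the morula stage. At 6 hpa it was covered over 44.6%, close to its 8-cell value, so that coverage of this cluster was high at 6 hpa, lower at 14 hpa (12.6%) and in the 2-cell list (21.4%), and high again in the 4-cell list.

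The 5′ ends of 39 protein-coding genes lay in a member. By the lower of the 2 folds the leading ones were Lep, the hormone leptin of adipose tissue (3.43 in 4-cell embryos, 3.45 in 8-cell embryos), Tnfsf14, a cytokine of the tumour necrosis factor family (3.50 and 3.38), Gm13696 (3.57 and 3.28), Hoxb1 (3.56 and 3.22) and Gm13695 (3.60 and 3.20). Olfr463, Ttc6, Ces2b, Zkscan3 and Gm5414 followed, with lower-of-2 folds of 3.09 to 3.17. Hoxb1 was covered over its whole body in 4-cell embryos (100%) and over 75.5% in 8-cell embryos, over 45.6% at the 2-cell stage and 69.8% at 6 hpa, and over 0 in CC, morula, ICM and TE. Lep was covered over 6.22% and 9.60% of its body at the 4-cell and 8-cell stages and over 3.75% at 6 hpa. Gm13695 and Gm13696 are neighbours of equal annotated length, 2493 bp each, and reads from near copies could not be separated here.

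Among 5 lists of genes with known roles in the embryo, picked with earlier results of these data known, 2 held no member. The other 3 had a larger share of genes with a member than the 4.68% over all protein-coding genes. That value lay inside the wide interval of the pluripotency list and below those of the other 2, of which the imprinted one counts 1 window for 2 overlapping genes. None of 28 genes of the H3K9 methylation machinery and none of 29 genes of the 2-cell programme had a member in the body or at the promoter, which allows shares of up to 12.1% and 11.7% (upper 95% Wilson limits). Of 35 pluripotency and lineage regulators 2 did, or 5.71% (1.58 to 18.6). These were Esrrb, an orphan nuclear receptor of naive pluripotency, with 3 members, and Fgfr2, which held 0 in its RefSeq span. The place of this list above 4.68% therefore rests on the GENCODE span of Fgfr2. Germline genes had 5 of 36, or 13.9% (6.08 to 28.7): Mov10l1 with 2 members, and Syce1, Tdrd1, Tdrd6 and Zp2 with 1 each. Imprinted genes had 5 of 44, or 11.4% (4.95 to 24), led by Rasgrf1 with 6 members and Kcnq1 with 2. Rasgrf1, an exchange factor for Ras that is expressed from the paternal allele, was covered over 33.1% at the 8-cell stage, 20.8% at the morula stage and 9.71% in CC.

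Large clustered gene families seldom held members. Zinc finger genes named Zfp had a member in 7 of 385 (1.82%), olfactory receptor genes in 22 of 1127 (1.95%), Vmn1r vomeronasal receptor genes in 2 of 207 (0.966%) and histone cluster genes in 1 of 67. Vmn2r genes (119), clustered protocadherins (56) and immunoglobulin variable segments (218) had none. The summed gene spans of these families were 3.66, 5.00 and 0.110 Mb in the same order, so the 0 of the immunoglobulin segments says little. The share over all protein-coding genes was 4.68%. Per Mb of gene the order was different, with 3.16 members for olfactory receptor genes and 9 for histone cluster genes, where the single member sets the value, against 2.38 over all genes, 1.28 for Vmn1r and 0.959 for Zfp genes. The lincRNA genes are not a family of this kind. Of 5209 annotated ones 296 held a member, a slightly larger share than the 974 of 20807 protein-coding genes.

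The 10 members with the highest lower-of-2 fold ranged from 5.52 and 4.22 for the window chr8:12136001-12137000 to 3.79 and 3.84 for chr5:101638001-101639000, which lies 19138 bp from Nkx6-1, a homeobox gene of the pancreas and spinal cord. The leading window was covered over 572 bases in 4-cell embryos and 1000 bases in 8-cell embryos, over 312 bases at the 2-cell stage and 471 bases in PN5, and over 0 in the other 6 lists. The member at chr5:35311001-35312000, which lies 29237 bp from Adra2c, an adrenergic receptor gene, was covered over all 1000 bases at both stages, over 139 bases in the morula list and 193 bases in PN5 and over 0 in the others. The member at chr6:64874001-64875000, which lies 142755 bp from Atoh1, a neural transcription factor gene, was close to the limit instead. It had 611 and 531 bases at the 4-cell and 8-cell stages and 486 and 488 bases in the morula and PN5 lists. Of these 10 windows 1 lay in a coding exon, of Aldh3b2, 1 in an intron, of Zfp385c, and 8 between genes.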

How the data were processed

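The 10 deposited H3K9me3 peak lists were used, 1 per stage, each made by the authors from merged libraries of that stage. The study's methods give 2 replicates per stage and the labels list 2 to 7 precipitates, so which libraries were merged is not known. The authors trimmed reads with cutadapt 1.16, aligned them to mm10 with BWA, merged the libraries of a stage, removed duplicates and drew the same number of reads per stage with SAMtools and Picard, and called broad peaks over input with MACS2, whose threshold is not given in the sources used here. The deposited fold is a linear ratio over input that the authors' caller averaged over the peak, and the deposited −log10 q is a q-value averaged in the same way. Read depth per library is not in the lists, so the depth behind a single window is unknown. Where a window has no peak, the mark was not called at this depth, and its absence was not shown.

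Peaks of each list were merged, and the bases covered were counted in 1-kb windows from position 0 with numpy 2.4.6. Sequence and soft-masking came from GRCm38.p6, whose chromosome lengths equal those of mm10, and genes from GENCODE M21, with RefSeq spans as a check. Coordinates are 1-based. The named genes are the 10 with the most members, the 10 with the most per 100 kb among those with at least 3, the 10 with the highest lower-of-2 fold at a member over the 5′ end, and up to 5 per gene list or family. Shares have Wilson 95% intervals, medians have order-statistic intervals and differences of shares have normal-approximation intervals. No test was run, because each stage has a single pooled list. The code that finds the windows was tested on simulated peaks. Alternatives changed the coverage limits, the −log10 q, the length of the lists, the start of the windows and the use of PN5. The members and the gene lists were chosen with earlier results of these data known.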

Additional observations from a re-analysis of the deposited data

Results flagged for a closer look

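The rule that defines the members takes autosomes only, and windows that meet the same limits were also found on the X chromosome, which no comparison above uses. There were 80 such windows on X, a count above the limit of 3 that a count of 0 allows. Their density was 0.489 per 1000 assembled windows, against 2.68 per 1000 on the autosomes. They were 1.41% of the 5670 X windows marked at both the 4-cell and the 8-cell stage, against 7.63% on the autosomes. Their median GC was 46.6%, and 17.5% of them were at least 50% soft-masked. On the Y chromosome 161 windows were marked at both stages and 0 met the rule. The donor cumulus cells came from the oviducts of female mice. The Y windows therefore cannot be read as marks on a Y chromosome of the embryos.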

How the results depend on the processing

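No paired analysis was possible because each stage has 1 pooled peak list, which also leaves no replicate to drop. Of 36 recomputed values, 6 results under each of 6 alternatives, 15 stayed within the interval of the reported value (or within 1.5 times of a count) and 21 did not, and every share of windows at least 50% masked was below the 21.2% of all windows. Demanding 750 bases in both lists left 2582 members, 4.95% of the windows marked at both stages, with a median GC of 47.7%, 5.89% at least 50% masked, 38.3% genic and 28.8% with peaks that reached no window marked elsewhere. Demanding 0 bases in the other lists left 1527 members, with values of 1.82%, 47.8%, 4.45%, 39.4% and 59.3% in the same order. Keeping peaks with a −log10 q of at least 2 left 3713 members, or 5.88%, with a median GC of 47.4% and 29.6% with peaks that reached no window marked elsewhere. Trimming every list to the length of the shortest, 123 Mb, gave 7.37%, with 8.56% at least 50% masked, 35.5% genic and 32.9% with such peaks, and leaving out PN5 gave 8.49% of the shared windows. The number of members and their share of the windows marked at both stages moved over the widest range, and the reasons were not tested. The median −log10 q at members was 2.24 and 2.12, against 2.25 and 1.99 over all peaks of the 4-cell and 8-cell lists.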

Other observations

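Regions with many members differed in how many genes they hold. The bin chr9:61000001-62000000 held 42 members, which is 31.1% of its windows marked at both stages, although only 3 protein-coding genes start in it and none of its members lay in a protein-coding gene. In chr15:101000001-102000000, where 36 protein-coding genes start, 27 members were 49.1% of the 55 windows marked at both stages, and Scn8a, a sodium channel gene, held 4 of them. Trpc7, a cation channel gene, held 13 of the 27 members in chr13:56000001-57000000, and Wdfy4 held 10 of the 27 in chr14:33000001-34000000.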
